A study of Mus musculus with 12 samples.

Results

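Short cassette exons are internal exons of at most 51 nt that a transcript can either include or leave out, and those of at most 27 nt are called microexons here. They were taken from the intron table of a splicing comparison in mouse embryonic stem cells. A splicing cluster, which is a group of introns that share splice sites, was taken as a cassette when it held exactly 3 introns, namely an upstream and a downstream intron that do not overlap and a skipping intron that runs from the start of one to the end of the other. The stretch left between the first 2 introns is the exon. Of 7263 clusters with values, 2813 held 3 introns and 2411 of these were cassettes. In 242 of the 2411 cassettes the exon was at most 51 nt long, and in 59 it was at most 27 nt long.

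An exon is recognised through the splice sites at its ends, a 3′ splice site that follows a stretch of pyrimidines in the intron before it, and a 5′ splice site at the start of the intron after it. In a very short exon these sites lie close together, and many microexons depend on dedicated activators, of which the neuronal SRRM4 is the best known. Microexons often keep the reading frame and add a few amino acids to a surface of a protein. They are known mainly from neurons, in cytoskeletal, vesicle-trafficking and adhesion proteins.

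All cells were female, of 129S x Cast background, carried a doxycycline-inducible *Xist*, and had METTL3, the catalytic subunit of the m6A writer, fused at its C-terminus to FKBP12(F36V), a tag through which dTAG-13 sends the protein to degradation. The 6 Ctrl samples were not treated (0 h), and the 6 dTAG samples had dTAG-13 for 3 h. All 12 samples were then labelled for 30 min with 4-thiouridine (4sU), so that newly made RNA could be pulled down and sequenced. Each group holds cultures of clone C3 and clone H5 with 3 replicates apiece, grown on inactivated mouse fibroblast feeders, and a line without the tag was not analysed here.

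The comparison asks how the use of short exons in newly made RNA differs after rapid removal of METTL3. The table gives for each intron the authors' pooled percent spliced in (PSI) per condition, which is the part of all split reads of a cluster taken by that intron, here as a fraction from 0 to 1. Both clones and all replicates share 1 value per condition. Read counts and values of single samples are not in the table, so the depth is unknown, no SD can be given, and no difference below was tested against the spread between replicates. The inclusion level of an exon was computed as the sum of the PSI of the upstream and downstream introns, divided by that sum plus 2 times the PSI of the skipping intron. As the PSI of the introns of a cluster add up to 1, this level is fixed by the PSI of the skipping intron. A difference is the inclusion level in dTAG minus that in Ctrl, and an exon was called higher or lower when it was at least 0.1 in size. The table holds no expression values, so the cell type could not be checked against its markers and the share of feeder RNA is unknown.

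The deposited coordinates gave the known lengths of 3 nt for the *Cyth2* exon and 61 nt for the *Btbd7* exon. In 240 of the 242 short exon clusters all 3 introns started with GT and ended with AG on one strand of mm10, and the other 2 clusters held an intron with GC at its start. Of the 242 exons, 236 had a single gene name in the table, 5 had several and 1 had none. The exons lay on all autosomes and the X chromosome, with 27 on chromosome 11, 23 on chromosome 2 and 18 on chromosome 6 as the highest counts.

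The shortest of the exons, and those with the largest differences, are shown with the last 20 bases of the intron before and the first 8 bases of the intron after, in lower case, and the exon in capitals. All are mm10 sequence in the direction of the gene. The 3 shortest exons called higher and the 2 other annotated 9-nt exons are
*Cyth2*, 3 nt: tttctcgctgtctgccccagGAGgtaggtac
*Nudt5*, 9 nt: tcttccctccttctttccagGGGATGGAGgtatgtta
*Dnm2*, 12 nt: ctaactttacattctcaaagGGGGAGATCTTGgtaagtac
*Ptk2*, 9 nt: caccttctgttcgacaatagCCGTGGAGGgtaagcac
*Macf1*, 9 nt: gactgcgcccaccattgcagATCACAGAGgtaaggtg
The *Cyth2* exon is the shortest of the 242. It lies at chr7:45808730-45808732 on the minus strand, between introns of 1394 and 280 nt. The *Nudt5* exon lies at chr2:5866233-5866241 on the plus strand, with a following intron of only 112 nt. The *Dnm2* exon is at chr9:21490658-21490669, the *Ptk2* exon at chr15:73211987-73211995 and the *Macf1* exon at chr4:123386549-123386557. All 5 are in coding sequence of GENCODE vM21 transcripts.

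Most of the short exons had lengths that are multiples of 3, which leave the reading frame downstream unchanged whether the exon is used or not. This held for 154 of 242 exons (63.6%), against 906 of the 2169 cassettes over 51 nt (41.8%). The share was 12 of 16 (75.0%) for exons of at most 15 nt, 35 of 43 (81.4%) for 16 to 27 nt, 107 of 183 (58.5%) for 28 to 51 nt, 832 of 1983 (42.0%) for 52 to 250 nt and 74 of 186 (39.8%) for over 250 nt. The last class reaches lengths of many kilobases, where the stretch between the introns can hold more than 1 exon. Among the 218 short exons that follow an annotated coding exon, 22 carried a stop codon in the frame of that exon, and 138 both kept the frame and carried none. Of the 16 exons of at most 15 nt, 14 had a known frame and 0 of these carried a stop.

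**Figure D1:**
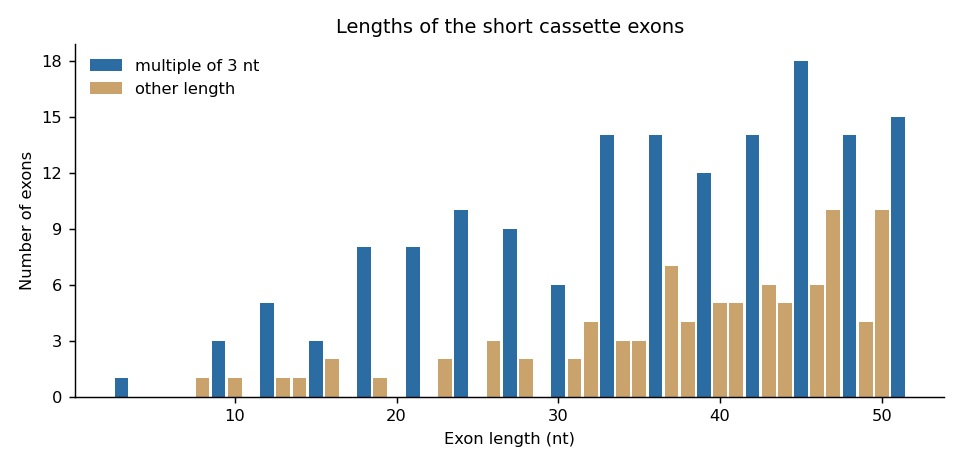
Number of short cassette exons (y axis) at each length in nt (x axis), with multiples of 3 nt in blue and other lengths in tan. Multiples of 3 stand above their neighbours from 9 nt upward, and they make up 154 of the 242 exons.

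In GENCODE vM21 the same exon was found in coding sequence for 190 of the 242 short exons, in a 5′ UTR for 10 and in a 3′ UTR for 1. A further 8 were found only in transcripts marked for nonsense-mediated decay, which removes mRNAs with an early stop codon, and 11 only in other noncoding transcripts. The remaining 22 were not in GENCODE vM21, and 9 of these are exons in RefSeq. The skipping intron was annotated for 174 of the 242. The frame went with the annotation: 135 of the 190 coding exons were multiples of 3 (71.1%), against 7 of the 22 exons that GENCODE does not hold (31.8%) and 3 of the 8 exons of decay transcripts (37.5%).

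In Ctrl cells the short exons covered the whole range of use, with a median inclusion level of 0.648 and quartiles of 0.192 and 0.934. The median was 0.561 for at most 15 nt, 0.421 for 16 to 27 nt and 0.680 for 28 to 51 nt, against 0.866 for all cassettes over 51 nt. Inclusion between 0.1 and 0.9 was seen for 123 short exons (50.8%), under 0.1 for 45 (18.6%) and over 0.9 for 74 (30.6%). Of the cassettes over 51 nt, 47.2% lay between 0.1 and 0.9, 10.5% below and 42.4% above. Low use was frequent among exons outside the annotation, whose median was 0.0586 over 22 exons, while the 190 coding exons had a median of 0.732. Exons with use over 0.9 kept the frame in 36 of 74 cases (48.6%), those between 0.1 and 0.9 in 92 of 123 (74.8%), and those under 0.1 in 26 of 45 (57.8%).

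As a set, the short exons had nearly the same median inclusion in both conditions, 0.648 in Ctrl and 0.653 in dTAG. The median difference was -0.0029, with quartiles of -0.0187 and 0.0096, and the median over all 2411 cassettes was also -0.0029. The difference was below 0 for 142 of the 242 short exons (58.7%) and for 57.1% of all cassettes. For 138 short exons (57.0%) it was under 0.02 in size, for 59 it was 0.02 to 0.05 and for 30 it was 0.05 to 0.1.

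A difference of at least 0.1 was found for 15 of the 242 short exons (6.20%), against 3.57% of all 2411 cassettes and, for the largest PSI difference of any intron, 4.63% of all 7263 clusters. Higher inclusion was called for 8 (3.31%, against 1.70% of all cassettes) and lower inclusion for 7 (2.89%, against 1.87%). At a size of 0.05 the share was close to that of all cassettes, with 45 exons (18.6%) against 15.7%. At a size of 0.2 it was 5 exons (2.07%) against 0.373%, so that 5 of the 9 cassettes past this size had an exon of at most 51 nt. An odds ratio of inclusion of at least 2 or at most 0.5, which gives more weight to exons near 0 or 1, was reached by 18 short exons (7.44%) and by 7.67% of all cassettes. Among exons with a Ctrl inclusion of 0.1 to 0.9, where there is room to move either way, 13 of 123 short exons (10.6%) were called, against 6.02% of all 1146 such cassettes. By length, the called share was 3 of 16 for at most 15 nt (18.8%), 4 of 43 for 16 to 27 nt (9.30%), 8 of 183 for 28 to 51 nt (4.37%), 57 of 1983 for 52 to 250 nt (2.87%) and 14 of 186 for over 250 nt (7.53%). The 2 shortest classes rest on few exons, and these shares were not tested.

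**Figure D2:**
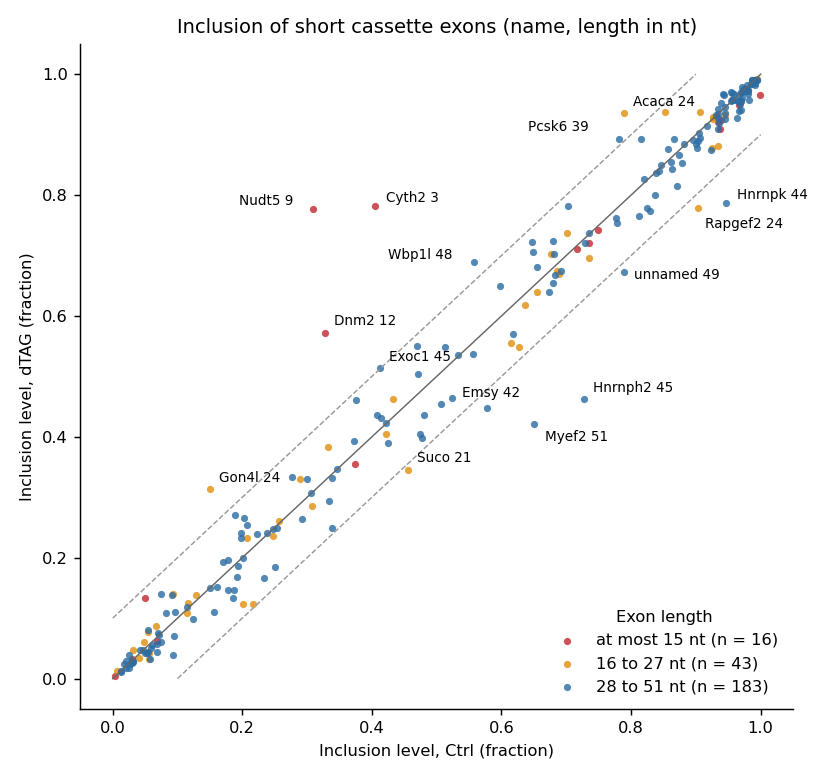
Inclusion level as a fraction in Ctrl (x axis) and in dTAG (y axis) for the 242 short cassette exons, 1 point each, coloured by exon length; the solid line marks equal values and the dashed lines a difference of 0.1. Most points lie along the solid line, and the 15 called exons are labelled with their gene and length in nt, with *Nudt5* and *Cyth2* farthest above it.

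Higher and lower calls were nearly equal in number, and the 3 called exons of at most 15 nt, in *Nudt5*, *Cyth2* and *Dnm2*, were all higher in dTAG, and so were 5 of the 7 called exons of at most 27 nt. The classes as a whole did not share this direction. The difference was below 0 for 10 of the 16 exons of at most 15 nt (62.5%, median -0.0069). It was below 0 for 33 of the 59 of at most 27 nt (55.9%, median -0.0059), against 57.1% of all cassettes. All 8 exons called higher were coding multiples of 3 with no stop codon in frame. Among all 242 short exons 78.5% were coding, and 57.0% kept the frame with no stop. Of the 7 called lower, 5 (71.4%) had lengths that are multiples of 3, against 63.6% of all 242. These were the exons of *Suco*, *Rapgef2*, *Emsy*, *Hnrnph2* and *Myef2*. The *Hnrnph2* exon is in the 5′ UTR and has no reading frame to keep. Short exons with a Ctrl inclusion of 0.1 to 0.9, which hold 13 of the 15 called, kept the frame in 74.8% of cases. With so few called exons nothing is read from these counts.

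**Figure D3:**
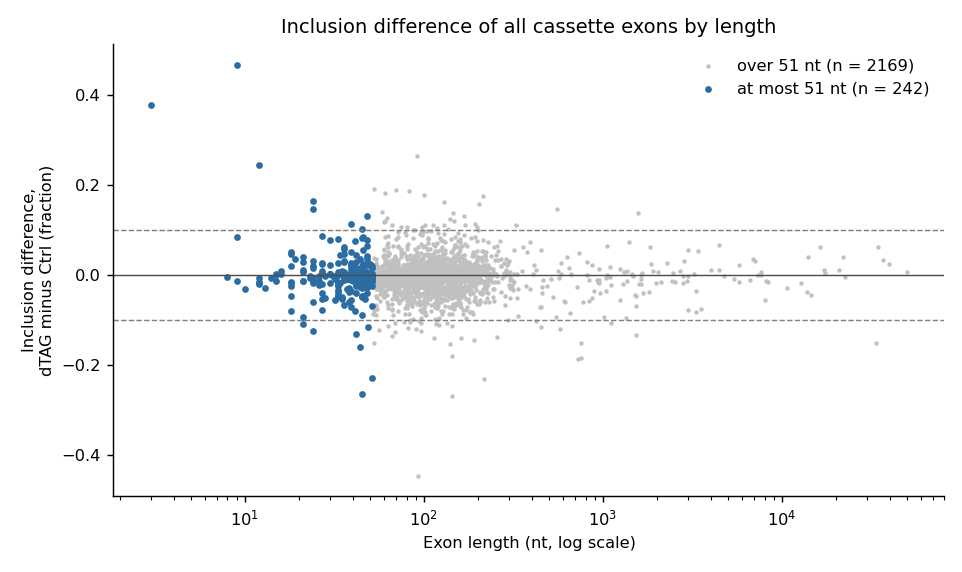
Inclusion difference as a fraction, dTAG minus Ctrl (y axis), against exon length in nt on a log scale (x axis) for 242 short cassette exons (blue) and 2169 longer cassettes (grey); dashed lines mark 0.1 and -0.1. The 3 blue points highest on the axis are the exons of 9, 3 and 12 nt, at 0.467, 0.378 and 0.244.

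*Nudt5* encodes a hydrolase of ADP-ribose and other ADP-sugars. Its 9-nt exon, exon 8 of Nudt5-201, had the largest difference of all 2411 cassettes. The PSI of its upstream intron was 0.260 in Ctrl and 0.507 in dTAG, that of the downstream intron 0.213 and 0.367, and that of the skipping intron 0.527 and 0.126. Inclusion was thus 0.310 in Ctrl and 0.777 in dTAG (difference 0.467), so the exon was in the minor form in Ctrl and in the major form in dTAG. Taken with the upstream intron alone or the downstream intron alone, the difference was 0.471 and 0.457, so the 2 sides of the exon gave nearly the same value.

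*Cyth2* encodes cytohesin 2, an exchange factor that loads GTP onto ARF GTPases at membranes, and its 3-nt exon is known to set the length of a glycine run in the lipid-binding PH domain. Inclusion was 0.405 in Ctrl and 0.783 in dTAG (difference 0.378, the third largest of all cassettes). The skipping intron had a PSI of 0.423 in Ctrl and 0.122 in dTAG. The 2 sides of the exon were unequal in Ctrl, where the upstream intron had a PSI of 0.117 and the downstream intron 0.460, and nearly equal in dTAG with 0.403 and 0.475. The difference was therefore 0.551 from the upstream intron alone and 0.275 from the downstream intron alone, higher in dTAG by either. With an exon of 3 nt, split reads that reach the exon from one side cross almost at once into the next intron, and how the alignment of such reads bears on the 2 junctions was not tested. Another *Cyth2* cluster just upstream, between 45810238 and 45810854 on chromosome 7, differed by at most 0.0092 in PSI.

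*Dnm2* encodes dynamin 2, the GTPase that pinches vesicles off membranes. Its 12-nt exon, exon 14 of Dnm2-201, had an inclusion of 0.328 in Ctrl and 0.572 in dTAG (difference 0.244). The PSI were 0.254 and 0.367 for the upstream intron, 0.240 and 0.361 for the downstream intron, and 0.506 and 0.272 for the skipping intron. The difference was 0.240 from the upstream intron alone and 0.249 from the downstream intron alone, and skipping was the major form in Ctrl and the minor form in dTAG.

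The other 12 exons among the 15 shortest had smaller differences. The 9-nt exon of *Ptk2*, which encodes focal adhesion kinase, was rarely used in Ctrl (0.0496) and had 0.133 in dTAG, a difference of 0.0838 under the size for a call. Its odds ratio was 2.95, and the PSI of its skipping intron was lower by 0.141. The 9-nt exon of *Macf1*, a crosslinker of microtubules and actin, was at 0.933 and 0.921. The 12-nt exons of *Mapk8ip3* (a scaffold that links JNK signalling to kinesin), *Supt5* (a subunit of the elongation factor DSIF) and *Stx16* (a syntaxin of the trans-Golgi network) had Ctrl inclusions of 0.750, 0.736 and 0.374 and differences of -0.0071, -0.0153 and -0.0194. The 12-nt exon of *Ptprs*, a receptor tyrosine phosphatase, was nearly always used, at 0.967 and 0.949. The 10-nt exon of *Rnf4*, a ubiquitin ligase that reads SUMO chains, was at 0.998 and 0.966, and the 13-nt exon of *Kif13a*, a kinesin, at 0.937 and 0.909. The 15-nt exon of *Sptan1*, the alpha chain of non-erythroid spectrin, was at 0.0295 and 0.0321. The 14-nt exon of *Ccnl1*, a cyclin that acts with splicing-linked kinases, occurs in a decay transcript and was at 0.0681 and 0.0616. A 15-nt stretch in *Hsp90aa1* that neither GENCODE nor RefSeq holds was at 0.0030 and 0.0038. A further 15-nt exon in *Immt*, a protein of the mitochondrial inner membrane, was at 0.938 and 0.925 and is named outside the rule for named exons. The 8-nt exon of *Snrnp48*, a protein of the minor spliceosome, is known to RefSeq and had very unequal sides, with PSI in Ctrl of 0.775 for the upstream and 0.0598 for the downstream intron, which makes its inclusion level of 0.716 uncertain.

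The remaining exons called higher are shown in the same form, to give the sites behind the values.
*Gon4l*, 24 nt: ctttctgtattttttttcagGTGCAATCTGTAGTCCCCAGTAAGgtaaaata
*Acaca*, 24 nt: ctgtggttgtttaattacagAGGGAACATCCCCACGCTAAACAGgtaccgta
*Pcsk6*, 39 nt: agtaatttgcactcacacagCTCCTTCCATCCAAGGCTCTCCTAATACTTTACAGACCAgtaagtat
*Exoc1*, 45 nt: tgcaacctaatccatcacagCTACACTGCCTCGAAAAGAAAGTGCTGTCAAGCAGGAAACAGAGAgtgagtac
*Wbp1l*, 48 nt: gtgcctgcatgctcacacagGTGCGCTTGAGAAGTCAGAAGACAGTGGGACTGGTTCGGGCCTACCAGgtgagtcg
They lie at chr3:88875907-88875930, chr11:84290288-84290311, chr7:66025566-66025604, chr5:76557819-76557863 and chr19:46606712-46606759, all on the plus strand.

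The 24-nt exon of *Gon4l*, a nuclear regulator of transcription, was a minor form in both conditions, with 0.151 in Ctrl and 0.314 in dTAG (difference 0.163). Its skipping intron had a PSI of 0.738 and 0.522. The 24-nt exon of *Acaca*, which encodes the acetyl-CoA carboxylase that commits acetyl-CoA to fatty acid synthesis, was the major form in both, with 0.789 in Ctrl and 0.936 in dTAG (difference 0.148). Its skipping intron had a PSI of 0.118 in Ctrl and 0.0330 in dTAG. The 48-nt exon of *Wbp1l*, a membrane protein that binds WW domains, had 0.558 and 0.689 (difference 0.131). The 39-nt exon of *Pcsk6*, a convertase that cleaves precursors of secreted signals of the TGF-beta family, had 0.781 and 0.893 (difference 0.113). The 45-nt exon of *Exoc1*, a subunit of the exocyst that tethers vesicles at the plasma membrane, had 0.412 and 0.514 (difference 0.102). Of these 5 exons, 4 were under the size for a call when 1 minus the PSI of the skipping intron was taken as inclusion, with differences of 0.0852 for *Acaca*, 0.0995 for *Wbp1l*, 0.0668 for *Pcsk6* and 0.0952 for *Exoc1*. That measure is the inclusion level on another scale, so the size of 0.1 is a different threshold there. With the upstream intron alone the differences of *Exoc1* and *Pcsk6* were 0.0913 and 0.0826, and in *Pcsk6* the PSI of the upstream intron (0.637 in Ctrl) was well over that of the downstream intron (0.240).

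The coding exons among the 7 called lower are shown in the same form.
*Suco*, 21 nt: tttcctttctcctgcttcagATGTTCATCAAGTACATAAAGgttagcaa
*Rapgef2*, 24 nt: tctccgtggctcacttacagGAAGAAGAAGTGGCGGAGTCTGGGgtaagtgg
*Emsy*, 42 nt: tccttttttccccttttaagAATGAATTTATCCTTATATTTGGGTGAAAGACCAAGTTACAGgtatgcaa
*Hnrnpk*, 44 nt: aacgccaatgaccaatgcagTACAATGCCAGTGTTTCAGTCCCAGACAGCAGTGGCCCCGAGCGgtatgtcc
*Myef2*, 51 nt: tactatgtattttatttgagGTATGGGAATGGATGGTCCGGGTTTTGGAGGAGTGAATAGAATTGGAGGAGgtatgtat
They lie at chr1:161845560-161845580, chr3:79082624-79082647, chr7:98645167-98645208, chr13:58397753-58397796 and chr2:125098797-125098847, all on the minus strand.

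*Hnrnph2* encodes an hnRNP that binds runs of G, and its 45-nt exon at chrX:134602918-134602962 lies in the 5′ UTR, as exon 3 of Hnrnph2-201. Its difference was the most negative among the short exons, with 0.727 in Ctrl and 0.463 in dTAG (difference -0.265). The PSI of the upstream intron was 0.440 and 0.325, of the downstream intron 0.402 and 0.308, and of the skipping intron 0.158 and 0.367. In dTAG the skipping intron was used more than either junction of the exon, and in Ctrl less. The related *Hnrnph1* has a coding 50-nt exon that was at 0.901 and 0.879, named here after its values were seen.

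*Myef2* encodes an RNA-binding protein related to hnRNP M, and its 51-nt exon was at 0.650 in Ctrl and 0.421 in dTAG (difference -0.229). The lower sum of both sides came from the upstream intron, whose PSI was 0.406 and 0.190, while the downstream intron had 0.382 and 0.402. Computed from the upstream intron alone the difference was -0.339, and from the downstream intron alone -0.146. *Hnrnpk* encodes an hnRNP that binds C-rich RNA, and its 44-nt exon 5, which shifts the frame when left out, was at 0.947 and 0.787 (difference -0.160). Skipping was rare in Ctrl with a PSI of 0.0272 and had 0.119 in dTAG. Here too the PSI of the upstream intron was lower, at 0.517 and 0.360, and that of the downstream intron was not, at 0.456 and 0.521. Set against skipping, the difference was -0.199 from the upstream intron alone and -0.130 from the downstream intron alone. Its 3′ splice site had a log-odds score of -2.05, the second lowest among the 242.

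The 42-nt exon of *Emsy*, a BRCA2-binding repressor of transcription, had 0.577 and 0.448 (difference -0.130). The lower sum of both sides came mainly from its downstream intron, with a PSI of 0.425 in Ctrl and 0.315 in dTAG. With the upstream intron alone the difference was -0.0918. The 24-nt exon of *Rapgef2*, an exchange factor for RAP GTPases, had 0.903 and 0.778 (difference -0.124). The 21-nt exon of *Suco*, a SUN-domain protein needed for bone formation, had 0.455 and 0.346 (difference -0.110), with nearly the same value from either side. A 49-nt exon without a gene name, at chr1:136624284-136624332 on the plus strand, had 0.788 and 0.673 (difference -0.115). With 1 minus the PSI of the skipping intron as inclusion, the differences of *Hnrnpk*, *Rapgef2* and this exon were -0.0921, -0.0736 and -0.0771. On that other scale they were under the size for a call. Neither GENCODE nor RefSeq holds the 49-nt exon. It is spliced to a site at 136624861, which is 40 bases before the annotated start of *Zfp281*, a zinc finger gene active in embryonic stem cells, and it overlaps the noncoding gene *Platr23* on the opposite strand.

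**Figure D4:**
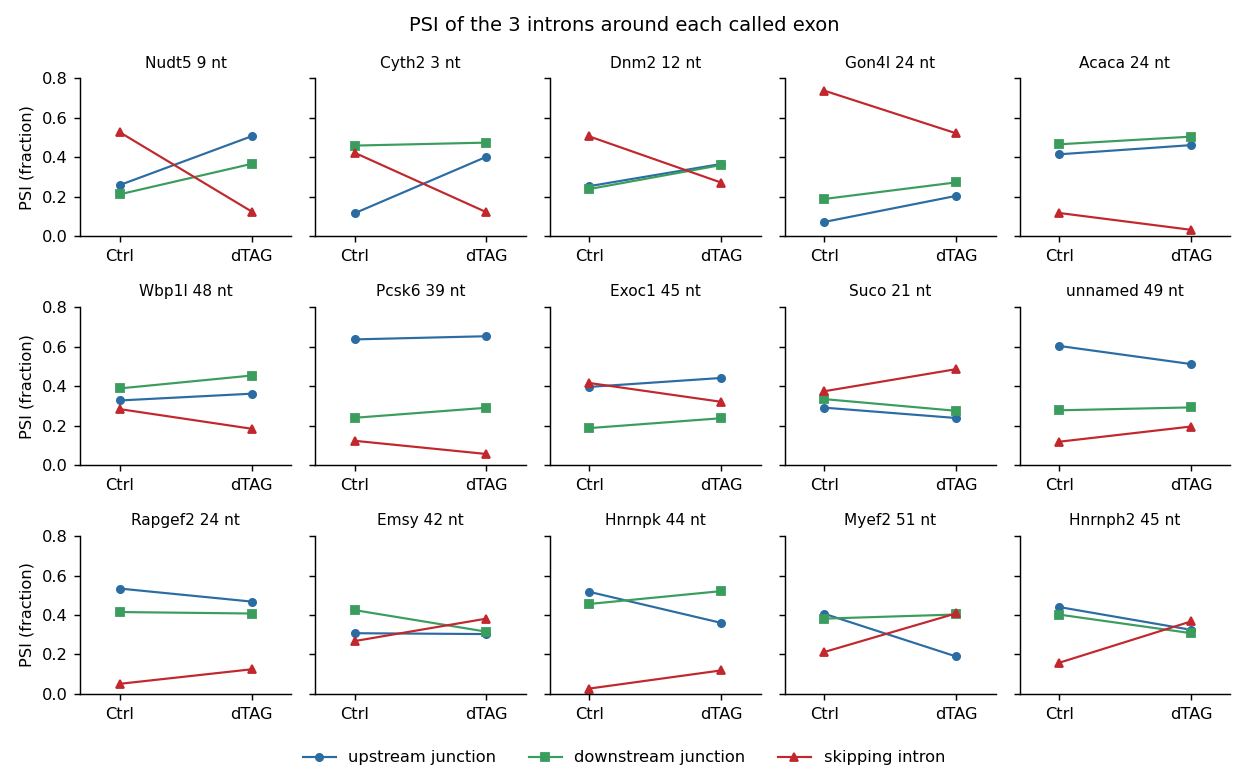
PSI as a fraction (y axis) of the upstream junction (blue), downstream junction (green) and skipping intron (red) in Ctrl and dTAG for the 15 called exons, ordered from the largest positive to the largest negative difference in inclusion; each point is 1 pooled value with no error. The skipping intron moves against the exon by construction, as the PSI of a cluster add up to 1. The 2 junctions move together in *Nudt5*, *Dnm2* and *Hnrnph2* and apart in *Hnrnpk* and *Myef2*.

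Other measured clusters of the genes with a called short exon were few, and nothing is read from their count. Of the 14 named genes with a called short exon, 7 had clusters that held no short exon, 14 in all, and 1 of the 14 held an intron that differed by at least 0.1 in PSI (4.63% of all clusters did). That cluster is in *Hnrnpk*, downstream of the 44-nt exon, where the intron from 58395687 to 58396188 on chromosome 13 had a PSI of 0.288 in Ctrl and 0.465 in dTAG.

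Where a gene held a pair of short exons, their values lay far apart in some genes and close in others, as in *Ptk2* in Ctrl (0.0496 and 0.0556). Of the 12 genes with a pair of short exons, none had overlapping skipping introns, and the distance between the exons ran from 5479 nt in *Ptbp1* to 97162 nt in *Acaca*. In *Rapgef2* the 24-nt exon was lower in dTAG as given above, and the 18-nt exon, 87091 nt away, was at 0.332 and 0.383, a difference of 0.0513 in the opposite direction. In *Acaca* the 47-nt exon was at 0.682 and 0.667, beside the higher inclusion of the 24-nt exon. The 21-nt exon of *Ptk2* was at 0.0556 and 0.0419, beside the 9-nt exon that was at 0.133 in dTAG. The 18-nt exon of *Macf1* was at 0.654 and 0.639. The other 8 pairs, in *Col18a1*, *Diaph2*, *Fam3c*, *Itpr1*, *Kif13a*, *Luc7l2*, *Mta1* and *Ptbp1*, had differences from -0.0276 to 0.0193. Within these pairs use differed widely in *Itpr1*, a calcium channel of the endoplasmic reticulum (0.874 for 45 nt and 0.178 for 51 nt), in *Kif13a* (0.937 for 13 nt and 0.0693 for 39 nt) and in *Luc7l2*, a protein of the U1 snRNP (0.532 for 30 nt and 0.0467 for 47 nt).

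Of 78 genes known to carry microexons, mostly in neurons, 39 had a cluster with values and 11 held 13 short cassette exons here. Called were 2 of the 13, those of *Cyth2* and *Dnm2*, against 15 of all 242 short exons (6.20%) and 3.57% of all cassettes, and with so few exons nothing is read from this count. The others that have not been given were *Clasp1*, a protein of growing microtubule ends (24 nt, 0.248 in Ctrl and 0.236 in dTAG), *Trappc9*, a trafficking subunit (27 nt, 0.201 and 0.123), *Robo1*, an axon guidance receptor (27 nt, 0.677 and 0.702), *Numb*, a Notch antagonist (33 nt, 0.557 and 0.538), and *Aplp2*, of the amyloid precursor family (36 nt, 0.0209 and 0.0284). These samples thus used the exons of *Robo1* and *Numb* in most of the split reads, and those of *Aplp2*, *Sptan1* and *Ptk2* rarely. Over all clusters of the list, 7 of 80 had an intron with a PSI difference of at least 0.1, where 4.63% of all 7263 clusters did.

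Of 32 genes that encode regulators of short exons, 17 had 49 clusters with values, and 0 of the 49 had an intron with a PSI difference of at least 0.1, against 4.63% of all 7263 clusters. At that share few of 49 clusters would be past this size, and no test was made. *Srrm3*, *Srrm4* and *Rbfox1* had no cluster with values. The list held 6 short exons. In *Ptbp1*, a repressor of many neuronal exons, the 34-nt exon, whose skipping is known to lower PTBP1 through decay, was at 0.968 and 0.951, and the 31-nt exon at 0.986 and 0.983. The 34-nt exon of its paralog *Ptbp3* was used at 0.0919 and 0.137. The 31-nt *Ptbp1* exon and the 34-nt *Ptbp3* exon are both exon 2 of their transcript, and are shown because the use of these exons of paralogous genes lies at opposite ends of the range.
*Ptbp1*, 31 nt: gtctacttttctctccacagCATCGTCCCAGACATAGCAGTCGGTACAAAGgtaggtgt
*Ptbp3*, 34 nt: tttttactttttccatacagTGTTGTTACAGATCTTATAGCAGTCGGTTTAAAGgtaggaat
Aligned at their last base they share 17 of 31 bases (54.8%). *Tia1*, which binds U-rich RNA after weak 5′ splice sites, had a 33-nt exon at 0.673 and 0.640. *Puf60* and *U2af2*, which act at the pyrimidine stretch, had exons of 51 nt at 0.415 and 0.431 and of 45 nt at 0.945 and 0.945.

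Exons used near the middle of the range have room to differ in either direction. Of the 10 with a Ctrl inclusion nearest 0.5, only *Suco* was called. Among exons with a Ctrl inclusion of 0.1 to 0.9 the called share was 10.6% of 123 short exons and 6.02% of all such cassettes. The 33-nt exon of *Ythdf3*, a cytoplasmic reader of m6A, was at 0.470 in Ctrl and 0.549 in dTAG (difference 0.0791), and from the upstream intron alone the difference was 0.103. Its downstream intron had a PSI of 0.220 and 0.190, not higher in dTAG, and set against skipping it gave a difference of 0.0164. The 41-nt exon of *Dtnb* (dystrobrevin beta), from a decay transcript, was at 0.477 and 0.398, the 39-nt exon of *Micu3*, a regulator of mitochondrial calcium uptake, at 0.475 and 0.404, the 38-nt exon of *Trp53inp1* at 0.524 and 0.464, and the 28-nt exon of *Nktr* at 0.506 and 0.455. *Eml4* (33 nt), *Cnot10* (36 nt), *Asph* (48 nt) and *Luc7l2* (30 nt) had differences of -0.0443, 0.0315, 0.0354 and 0.0023. The 39-nt exon of *Mettl3* itself, named after its values were seen, was at 0.934 and 0.928, but the depletion acts on METTL3 protein, so its RNA is no check of the labels.

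The splice sites of the short exons were scored against a matrix made from all introns of the table, as the log2 odds of each base over equal base shares, summed over 3 exon and 6 intron bases at the 5′ site and over 20 intron and 3 exon bases at the 3′ site. The median score of the 5′ site was 8.64 for short exons and 7.76 for the cassettes over 51 nt. It was 9.56 for exons of at most 15 nt, with quartiles of 8.98 and 10.4. The median score of the 3′ site was 9.78 against 8.95, but it was 8.85 for exons of at most 15 nt, where the quartiles of 3.75 and 10.9 lay far apart. The 30 bases before the exon held a median of 73.3% pyrimidines for exons of at most 15 nt, 66.7% for those of 16 to 27 nt and 28 to 51 nt, and 63.3% for the cassettes over 51 nt. The called short exons had a median of 60.0%, with medians of 8.60 for the 5′ site and 7.75 for the 3′ site. The exons called higher spanned 3′ site scores from 3.55 for *Exoc1* to 16.3 for *Gon4l*.

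**Figure D5:**
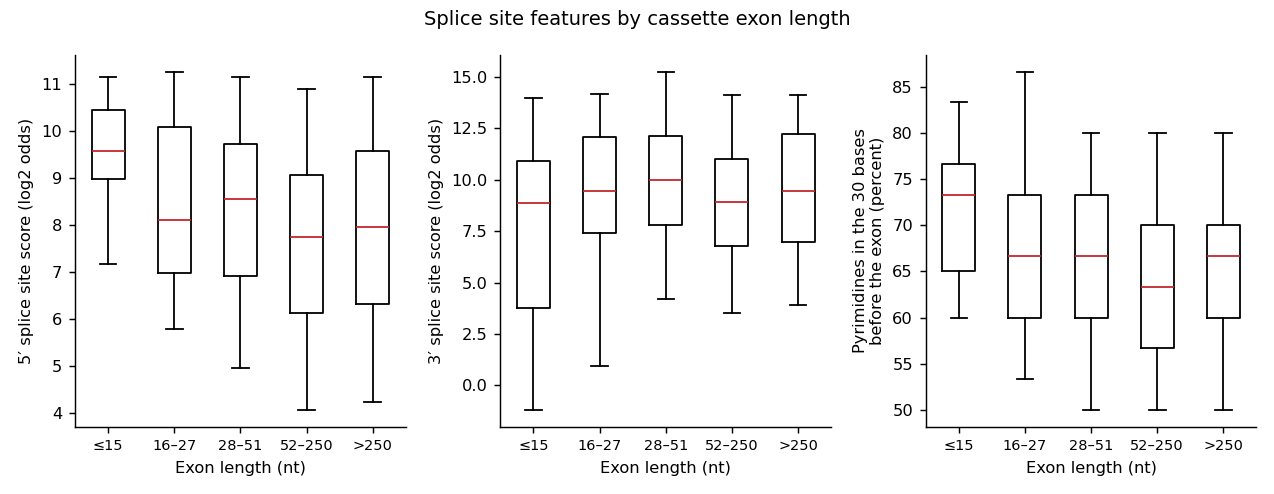
Scores of the 5′ and 3′ splice sites as log2 odds, and pyrimidines as a percentage of the 30 bases before the exon (y axes), for 5 classes of cassette exon length in nt (x axes). Red lines are medians, boxes the quartiles and whiskers the 5th and 95th percentiles over exons; the 5′ site median is 9.56 at 15 nt or less and 7.74 at 52 to 250 nt.

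Flanking introns were of ordinary length, with medians of 1355 nt before and 1481 nt after the short exons, and 1451 nt and 1487 nt for the longer cassettes. The exons called higher had medians of 2699 nt and 3207 nt over 8 exons, and those called lower 1240 nt and 853 nt over 7. Quartiles were 1261 and 6402 nt before and 925 and 4641 nt after the exons called higher. For those called lower they were 732.5 and 1415 nt before and 403 and 1615 nt after. The ranges between quartiles thus overlapped, and the contrast was not tested. GC content was 46.9% in the median for short exons and 47.9% for longer cassettes. TGC, a motif bound by SRRM4 when it lies before a microexon, was present in the 100 bases before 186 of the 242 short exons (76.9%) and before 77.6% of the longer cassettes, read on the strand of the gene. The 5-base m6A context GGACT, read on the same strand, occurred in the 100 bases on either side of 24 short exons (9.92%), against 12.7% of the longer cassettes, and inside 7 (2.89%). The 7 are the exons of *Wdr5*, *Mob4*, *Tdh*, *Tmem134*, *Fam3c* (30 nt), *Col18a1* (43 nt) and *Wbp1l*, and only *Wbp1l* among them was called. Of the 15 called exons, 1 had the motif within 100 bases on either side, *Suco* with 2 matches before the exon. A match is a string of letters, not a measured m6A site.

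As a set, the junctions on the 2 sides of a short exon were closer to each other than those of longer cassettes, but not in the shortest class. The PSI of the 2 junctions differed by more than 0.1 in either condition for 101 of the 242 short exons (41.7%), 18 of the 59 of at most 27 nt (30.5%) and 1361 of the 2169 longer cassettes (62.7%). The gap of an exon is the larger PSI difference of the 2 conditions. Its median was 0.132 for exons of at most 15 nt, close to 0.137 for 52 to 250 nt. It was 0.0427 for 16 to 27 nt and 0.0875 for 28 to 51 nt. The upstream junction had the higher PSI in 103 of 242 short exons in Ctrl (42.6%) and in 95 in dTAG (39.3%). Of the 15 called exons, 10 had a gap of over 0.1, and *Dnm2*, *Suco*, *Acaca*, *Hnrnph2* and *Wbp1l* had less.

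The values just inside and just outside the length limit overlapped. The 15 exons of 51 nt had a median difference of -0.0029 and ran from -0.229 to 0.0193, and the 10 exons of 52 nt had -0.0014 and ran from -0.0859 to 0.0218. The calibration exon of *Btbd7*, 61 nt long and outside the limit, was at 0.0977 in Ctrl and 0.280 in dTAG.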

How the data were processed

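4sU-labelled RNA of 12 samples (6 Ctrl and 6 dTAG) was sequenced by the authors with a stranded total RNA kit. Per the submitters' processing notes and the paper's methods, the authors aligned reads to mm10 with STAR 2.5.2b, kept unique end-to-end alignments, and ran LeafCutter on split reads with at least 30 reads per cluster and both clones in a single comparison. The deposited PSI per intron and condition is the fraction that the authors' software fitted to the pooled samples. Other deposited columns hold the authors' own effect sizes, likelihood scores and p-values for this comparison and were not used; 0 columns were left unmapped. The status and gene name columns were used as text. Because a split read must be anchored in exon sequence, alignment can lose or misplace reads at exons of a few bases, and this was not tested here.

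Of 8706 listed clusters, 7263 had PSI. From these the cassettes, inclusion levels and differences were computed as described above, with no filter and no pseudocount. Coordinates are 1-based on mm10, compared with the GRCm38 sequence, and annotation was GENCODE vM21 with RefSeq for exons it does not hold. Members, gene lists and settings were chosen with earlier results of these data known. Named were exons called at 0.1, the 15 shortest, the 10 with the largest difference, those in genes of the 2 lists, the 10 with a Ctrl inclusion nearest 0.5, and genes with several short exons, 63 in all. No test was run, because each condition has 1 value per intron. Splice site matrices used a pseudocount of 0.5 per base. In 15 short exons a flanking intron was under 100 nt, so the window reached into the next exon. The finding of cassettes and the computing of inclusion levels were run on simulated clusters built with the same inclusion formula, which checks only the code. The annotation, frame, splice site and motif steps were not tested in this way. Python 3.11.15, pandas 2.3.3, numpy 2.4.6, pysam 0.24.0, samtools 1.23.1 and matplotlib 3.10.9 were used.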

Additional observations from a re-analysis of the deposited data

How the results depend on the processing

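The count of 15 called short exons (8 higher, 7 lower) was 45 at a call size of 0.05 and 5 at 0.2. It was 5 without the exons whose 2 junctions differed by more than 0.1 in PSI, which removed *Cyth2* and *Nudt5* among others and left 141 exons, and 7 for exons of at most 27 nt. With the skipping PSI alone it was 14, of which 8 were among the 15. *Acaca*, *Exoc1*, *Hnrnpk*, *Pcsk6*, *Rapgef2*, *Wbp1l* and the unnamed exon were not called then, and *Arntl*, *Kmt2d*, *Mgrn1*, *Ptk2*, *Smc5* and *Trappc9* were. With the upstream junction alone it was 16, of which 12 were among the 15, and *Emsy*, *Exoc1* and *Pcsk6* were not called. With the downstream junction alone it was 17, all 15 included. The odds ratio gave 18, of which 10 were among the 15. Leaving out exons near 0 or 1 in both conditions kept all 15, and using annotated exons or clusters with a single gene name left 14, without the unnamed exon. No called exon changed direction with the upstream or the downstream junction alone. The skipping PSI alone cannot change the direction, because the inclusion level is fixed by it. The median difference lay between -0.0065 and -0.0022 under the 8 alternatives. The share of exons that keep the frame was 79.7% for at most 27 nt and 66.8% for annotated exons. No paired analysis was possible because the table holds 1 pooled value per condition, and for the same reason no sample or clone could be left out, and the depth behind a PSI and its error are unknown. The skipping PSI alone is the inclusion level on another scale, so the same size is a different threshold there. Why the upstream and downstream junctions alone gave other calls was not tested.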
